A study of Rattus norvegicus with 12 samples.

Results

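The saline animals of this study give the resting transcriptome of the rat prefrontal cortex in early adolescence. They are 4 of the 12 libraries sequenced, chosen by the word Saline in their titles, with 1 library per animal (Saline 1 to Saline 4). All are wild type (WT) offspring labelled as controls, without the oxycodone given to the other 8 animals. The 4 animals are the offspring of 2 dams, each of which gave 2. No label says which dam an animal had, its sex or its strain, so the SDs below are the spread over 4 animals of 2 litters. Polyadenylated RNA was selected from total RNA of the dissected cortex and made into strand-specific libraries. What follows describes levels, ranks, composition and spread. No groups were compared and no test was run, so orders between genes are given with the number of animals in which they held.

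The prefrontal cortex is a layered sheet of neurons at the front of the brain that serves planning, working memory and the control of emotion. Most of its neurons are excitatory pyramidal cells that release glutamate, and a minority are interneurons that release GABA, set among astrocytes, myelin-forming oligodendrocytes, microglia and vessels. Glutamate acts on AMPA, kainate and NMDA receptor channels and on metabotropic receptors coupled to G proteins. GABA acts on GABA-A receptor channels and on the GABA-B receptor. Acetylcholine, serotonin, dopamine and noradrenaline reach the cortex through fibres whose cell bodies lie elsewhere, so that their receptors are made in the cortex and most of their uptake carriers are not. In adolescence, myelination and the maturing of inhibition are still under way.

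Total counts ran from 58218128 to 60672246 per library. Levels are given in FPKM, fragments per kilobase of gene model scaled to library size, which allows genes to be compared per length. Pearson's r of log2(FPKM + 0.1) between pairs of animals, taken across genes, lay between 0.9736 and 0.9813. The mitochondrial genome gave 17.0% to 18.9% of counts and 38.4% to 41.9% of summed FPKM. Genes annotated as ribosomal RNA took 1.55% to 2.02% of counts.

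Of 22431 genes in the table, 12509 had a mean level of at least 1 FPKM and 1648 had no count in any of the 4 animals. Those at 1 FPKM or more included 11807 of 18841 protein-coding genes (62.67%) and 458 of 1853 long noncoding RNA genes. The middle of the range was broad, with 7303 genes between 1 and 10 FPKM and 4714 between 10 and 100 FPKM. The top was narrow: 467 genes lay between 100 and 1000 FPKM and 25 above that, of which 16 were mitochondrially encoded. The 10 highest genes held 35.8% ± 1.45 of all FPKM (SD, n = 4), and all of them were mitochondrially encoded. Among nuclear genes alone the 10 highest held 5.12% ± 0.089, the 100 highest 20.4% ± 0.154 and the 1000 highest 55.1% ± 0.665 of nuclear FPKM. The nuclear transcriptome was therefore spread over many genes, and these shares moved by under 1 percentage point between animals in SD.

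**Figure D1:**
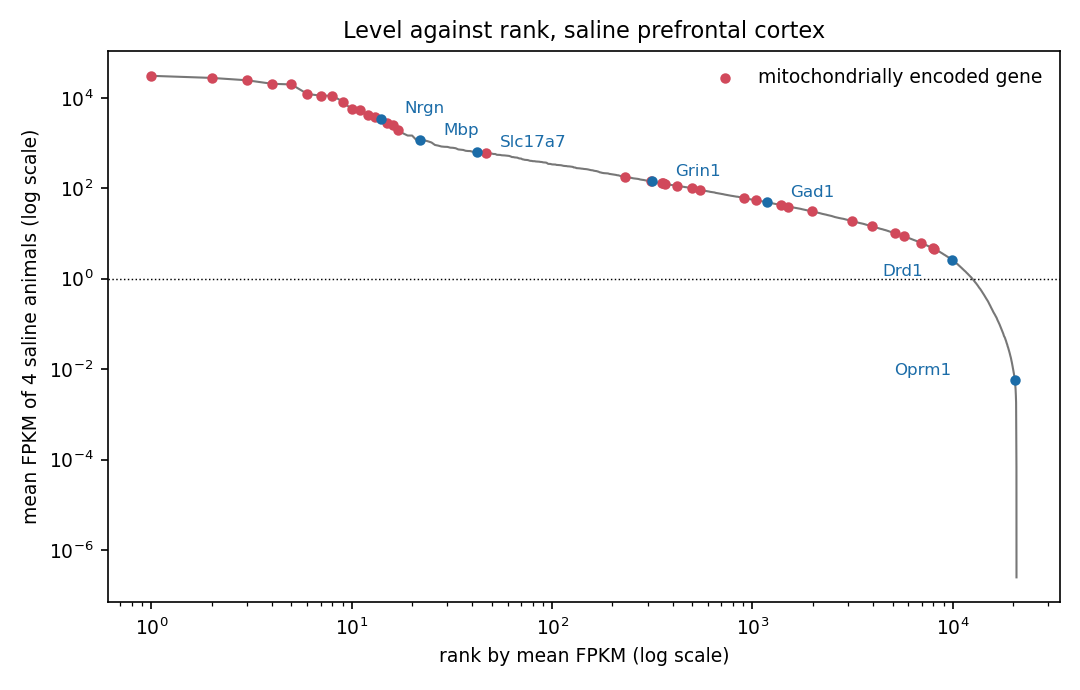
Mean FPKM of the 4 saline animals (vertical, log scale) against rank (horizontal, log scale) for every gene with a count, with mitochondrially encoded genes in red and 7 nuclear genes in blue. Nrgn stands at rank 14 among the mitochondrially encoded genes, Drd1 near rank 10000 at 2.59 FPKM, and Oprm1 near the foot of the curve. The dotted line marks 1 FPKM.

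All 13 mitochondrially encoded protein genes stood among the 17 highest genes. Mt-atp6, a subunit of ATP synthase, was the highest of all genes at 31635, 29820, 30329 and 30605 FPKM in Saline 1 to 4. Mt-co1, the catalytic subunit of cytochrome c oxidase, followed at 27514 ± 2422 FPKM, and Mt-co3 and Mt-co2 of the same complex at 24390 ± 2011 and 20407 ± 1410 FPKM (SD, n = 4 each). The complex I subunits spanned a wide range, with Mt-nd1 at 12138 ± 630 FPKM and Mt-nd5 at 1949 ± 219 FPKM. Mt-nd4l, a short gene of 297 bases that overlaps Mt-nd4, was the least even of them at 3092, 2977, 5295 and 4043 FPKM. By counts the leading gene was Mt-co1 and Mt-atp6 was second.

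The highest nuclear gene was Nrgn, which encodes neurogranin, a calmodulin-binding protein of dendritic spines. It had 3390, 3058, 3671 and 3753 FPKM in Saline 1 to 4, a mean of 3468 ± 315 FPKM. Its place depended on the length scaling: the model length implied by its FPKM and counts was 243 bases, and by counts it stood at rank 107. The deposited table places it on chromosome 8 from 37256930 to 37257516 in a build that is not given in the sources used here. Then came Ptgds (prostaglandin D synthase, a secreted carrier) at 1642 ± 115 FPKM, Apoe (the lipid carrier of astrocytes) at 1464 ± 118 FPKM and Zwint at 1463 ± 131 FPKM. Zwint is named for a kinetochore role in dividing cells. Apoe was above Zwint only in Saline 4, so the order of their means did not hold in the other 3 animals. Calm2 (calmodulin, the calcium sensor) averaged 1166 ± 79.9 FPKM, and the myelin gene Mbp 1157 ± 300 FPKM. Fth1 (ferritin heavy chain) stood at 1148 ± 118 FPKM and Ckb (brain creatine kinase) at 1091 ± 125 FPKM. Uchl1 (a neuronal ubiquitin hydrolase) at 1027 ± 96.3 FPKM and Cpe (carboxypeptidase E, which trims neuropeptides) at 906 ± 79.0 FPKM closed the leading 10. Calm2 and Fth1 have close copies elsewhere in the genome, so reads could have been split between copies in the authors' counting. By counts Mbp led the nuclear genes, with 287638, 333928, 200773 and 204947 counts in Saline 1 to 4.

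Promoter letters were set beside the levels for 11868 of 18828 nuclear protein-coding genes that had 1 RefSeq promoter entry (build GRCr8). Over the 250 bases upstream of the annotated start, the median number of CG pairs was 3 in genes without a count, 9 in genes at 0.1 to 1 FPKM, 16 at 1 to 10 FPKM and 18 both at 10 to 100 FPKM and above. The motif TATAAA, searched on both strands, was present in 17.1% of promoters of genes without a count, 5.34% at 10 to 100 FPKM and 10.4% at 100 FPKM or more, against 7.99% of all matched promoters. Share by level was thus highest at the silent end, lowest in the middle and higher again at the top. TGACGTCA, the palindromic cyclic AMP response element, was present in 0.551% of promoters of genes without a count, 4.75% at 100 FPKM or more and 2.55% of all. These are matches of letters and not measured binding sites. The 5 promoters printed here belong to genes at the ends of the ranges described here: the highest nuclear gene (Nrgn), one of the 10 steadiest (Pdhb), uneven abundant genes of blood (Hba-a2 and Hbb-b1), and an activity-driven gene with a high resting level (Egr1). Each is written 5′ to 3′ on the gene's own strand and ends at the base before the annotated start. Capitals mark TATAAA in the globin genes and the CArG box, the element bound by serum response factor, in Egr1.
Nrgn, chr8:45452418-45452667, reverse strand: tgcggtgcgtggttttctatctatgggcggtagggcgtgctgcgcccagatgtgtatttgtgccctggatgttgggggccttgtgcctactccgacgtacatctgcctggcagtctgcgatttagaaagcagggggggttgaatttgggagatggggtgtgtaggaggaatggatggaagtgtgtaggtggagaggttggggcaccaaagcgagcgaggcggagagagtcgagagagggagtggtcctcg
Pdhb, chr15:19182539-19182788, forward strand: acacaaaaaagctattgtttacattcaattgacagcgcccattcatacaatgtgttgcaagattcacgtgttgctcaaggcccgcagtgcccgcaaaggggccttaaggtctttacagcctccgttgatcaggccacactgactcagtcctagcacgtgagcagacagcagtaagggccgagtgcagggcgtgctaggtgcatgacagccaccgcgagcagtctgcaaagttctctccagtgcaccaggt
Hba-a2, chr10:15829139-15829388, reverse strand: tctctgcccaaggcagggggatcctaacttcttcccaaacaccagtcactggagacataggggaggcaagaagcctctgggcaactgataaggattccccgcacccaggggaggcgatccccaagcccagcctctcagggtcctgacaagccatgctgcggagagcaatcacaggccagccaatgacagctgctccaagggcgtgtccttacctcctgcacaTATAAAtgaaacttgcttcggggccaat
Hbb-b1, chr1:167643521-167643770, reverse strand: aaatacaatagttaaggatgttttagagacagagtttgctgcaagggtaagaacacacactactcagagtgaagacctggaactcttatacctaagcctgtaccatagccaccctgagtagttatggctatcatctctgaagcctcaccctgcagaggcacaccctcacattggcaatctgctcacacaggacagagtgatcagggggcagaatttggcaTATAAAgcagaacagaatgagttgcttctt
Egr1, chr18:26736828-26737077, forward strand: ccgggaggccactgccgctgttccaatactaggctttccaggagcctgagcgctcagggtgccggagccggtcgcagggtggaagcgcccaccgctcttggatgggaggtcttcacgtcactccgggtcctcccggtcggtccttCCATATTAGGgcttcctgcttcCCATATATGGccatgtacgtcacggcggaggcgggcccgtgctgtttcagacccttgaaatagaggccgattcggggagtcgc
The Nrgn promoter had 13 CG pairs and 58.0% GC, that of Pdhb 10 and 53.2%, and neither held the TATA motif. It lay 28 to 23 bases upstream of the start in Hba-a2 and 30 to 25 bases upstream in Hbb-b1, whose promoter held no CG pair. Egr1 had 20 CG pairs and 2 CArG boxes, 105 to 96 and 83 to 74 bases upstream, a motif found in 1.18% of all matched promoters. Of the immediate early genes 11 were matched, and 2 held a CArG box, 2 the cyclic AMP element and 2 the TATA motif. The TATA motif was present in 3 of 4 matched blood genes and in 3 of 8 matched common reference genes. Among genes at 100 FPKM or more, the median spread between animals, defined further on, was 11.7% in 33 genes with the TATA motif and 10.8% in 283 without.

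Markers of the labelled tissue were present at high levels in all 4 animals. The 9 excitatory neuron markers summed to 4357, 3976, 4867 and 4932 FPKM in Saline 1 to 4, of which Nrgn gave most. Slc17a7, the vesicular glutamate transporter of cortical neurons, had 544, 556, 735 and 706 FPKM. Camk2a, the kinase of excitatory synapses, averaged 289 ± 48.6 FPKM. The transcription factors of cortical projection neurons were lower, with Neurod6 at 35.8 ± 3.15, Tbr1 at 31.1 ± 2.93 and Neurod2 at 17.9 ± 2.50 FPKM. In bulk tissue, fewer cells of a type and less RNA per cell cannot be told apart, so these are levels of RNA and not shares of cells.

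GABAergic interneuron markers summed to 536, 667, 682 and 677 FPKM, with Saline 1 below the other 3. Sst, the somatostatin precursor, led them at 261, 326, 334 and 290 FPKM, followed by Npy at 118 ± 21.6 and Lamp5 at 94.5 ± 28.3 FPKM. Gad1, which makes GABA, had 45.2, 51.4, 46.6 and 52.5 FPKM. Gad2, the second GABA-making enzyme, had 4.39, 3.32, 4.35 and 2.70 FPKM, so Gad1 was 14.0 ± 4.34 times Gad2 per length and 24.1 times by counts. The implied model lengths were 3391 bases for Gad1 and 1969 bases for Gad2, and whether the Gad2 model covers its whole transcript was not tested. Vip (16.7 ± 1.47 FPKM) and Calb2 (10.8 ± 0.532 FPKM) mark other interneuron classes. The factors Dlx1, Dlx5 and Lhx6 that specify interneurons lay at 8.40 ± 0.678, 3.71 ± 1.33 and 2.45 ± 0.284 FPKM. Pvalb was not analysed here. Slc32a1, the vesicular transporter of GABA, had 19.5, 24.2, 36.7 and 29.2 FPKM, and Slc17a7 was 23.8 ± 3.24 times Slc32a1.

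Markers of deep and of upper layers were both present, and those of layer 4 were low. Tbr1 and Fezf2, factors of deep-layer neurons, averaged 31.1 ± 2.93 and 20.7 ± 3.38 FPKM, and the upper-layer factors Lhx2 and Cux2 averaged 22.7 ± 2.50 and 8.49 ± 1.53 FPKM. The layer 4 gene Rorb had 1.26, 1.15, 0.999 and 1.27 FPKM, and Rspo1 and Scnn1a averaged 1.08 ± 0.348 and 0.151 ± 0.0582 FPKM. Of the 12 deep-layer genes, 8 were highest in Saline 2 and 7 were lowest in Saline 4. Of the 5 upper-layer genes, 4 were lowest in Saline 2. The share over all genes was not counted for this or later tallies. As a background, 7, 3, 2 and 1 of 13 common reference genes were highest in Saline 1 to 4, and 2, 1, 4 and 6 were lowest. The median FPKM over all genes was 1.7, 1.668, 1.557 and 1.549.

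Astrocyte markers summed to 1802, 1612, 1491 and 1670 FPKM, led by the glycolytic enzyme Aldoc at 523 ± 50.2, S100b at 479 ± 47.8 and the glutamine synthetase gene Glul at 336 ± 62.6 FPKM. Gfap, the filament of fibrous and reactive astrocytes, had 110, 88.4, 101 and 82.3 FPKM. The spread of the astrocyte sum was narrow, at 1.21-fold between the highest and the lowest animal.

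Mature oligodendrocyte markers were far less even, at 2885, 3629, 1974 and 2161 FPKM, a 1.84-fold range. All 11 members were highest in Saline 2, and 9 of them were lowest in Saline 3. Mbp had 1273, 1526, 900 and 926 FPKM and Mobp, another basic protein of myelin, 225, 342, 147 and 209 FPKM. Opalin, a gene of late-stage oligodendrocytes, had 18.6, 39.9, 12.7 and 21.5 FPKM. Saline 1 and 2 lay above Saline 3 and 4 for Mbp and Mobp. The precursor markers had closer sums, at 117, 128, 99.1 and 98.6 FPKM, but single members varied. Pdgfra, the receptor that marks precursors, had 7.31, 5.47, 4.92 and 4.18 FPKM, a 1.75-fold range, whereas Olig2 averaged 6.80 ± 0.299 FPKM.

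Microglial genes summed to 224, 177, 166 and 175 FPKM, and 10 of 12 were highest in Saline 1. The complement genes C1qb and C1qa averaged 32.5 ± 7.01 and 26.5 ± 3.82 FPKM. Csf1r, the survival receptor of microglia, averaged 19.3 ± 1.80 FPKM and P2ry12, a gene of resting microglia, 6.24 ± 1.54 FPKM. All 6 endothelial genes were highest in Saline 1, with a sum of 71.0 FPKM in that animal and 51.1 to 56.3 FPKM in the other 3. Slco1c1, a thyroid hormone carrier of brain endothelium, led them at 31.0 ± 4.95 FPKM. As a background to both tallies, 7 of 13 common reference genes were highest in Saline 1. Of the 9 pericyte and smooth muscle genes, 5 were highest in Saline 4, among them Acta2 at 11.6, 11.2, 17.6 and 19.2 FPKM. The meningeal list summed to 1737 ± 121 FPKM, of which Ptgds, also made by oligodendrocytes, gave 1642 FPKM. Mgp was next at 21.3 ± 1.56 FPKM.

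**Figure D2:**
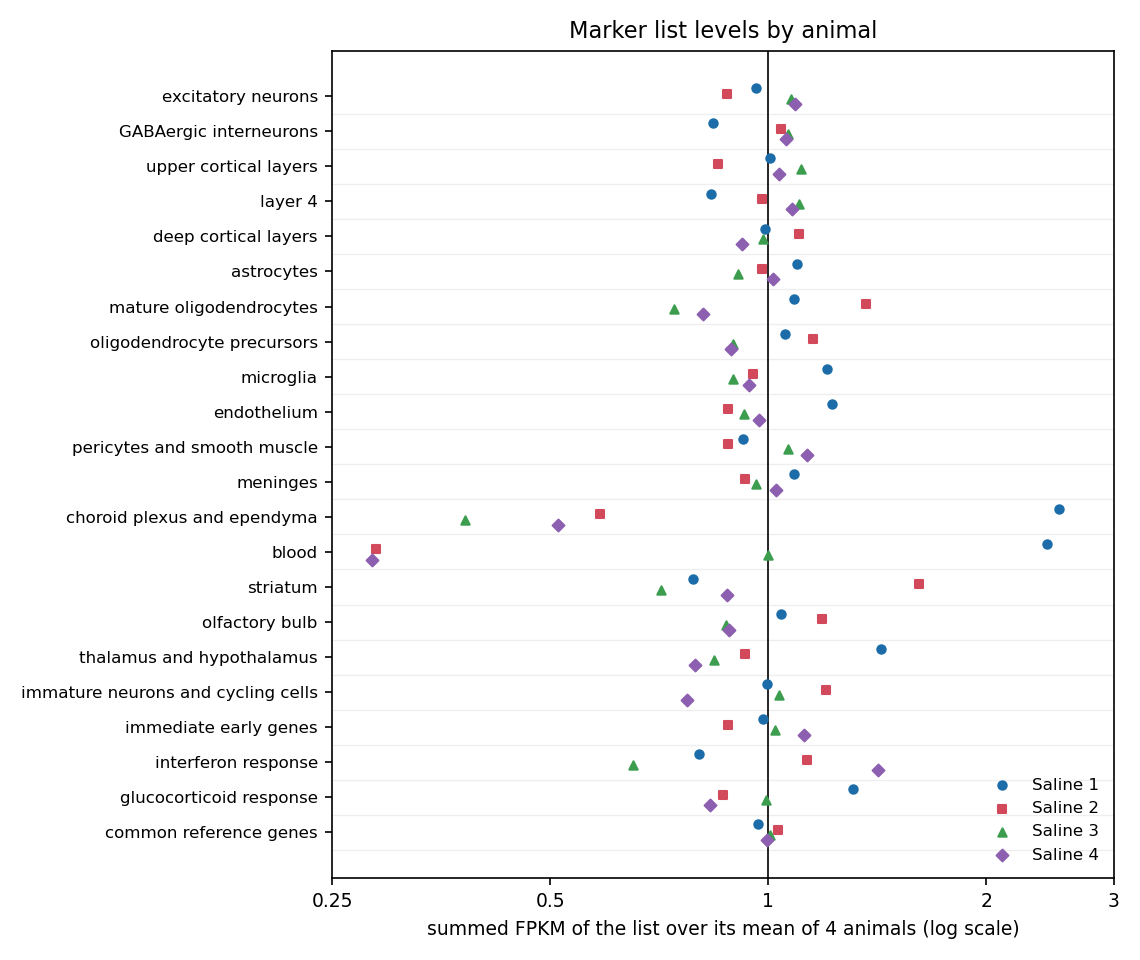
Summed FPKM of each marker list in each animal divided by its mean over the 4 animals (horizontal, log scale), with 1 row per list and 1 symbol per animal. The common reference genes sit close to 1 in all animals. Saline 1 stands to the right for choroid plexus and blood, and Saline 2 for striatum and mature oligodendrocytes.

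Glutamate receptor genes carried the largest summed level of 11 transmitter receptor groups, at 371, 363, 397 and 394 FPKM, with GABA receptors second at 340, 328, 369 and 363 FPKM. This order, and acetylcholine receptors as the third, held in every animal. Among AMPA receptor subunits, which form the main fast excitatory channel, Gria3 led with 43.8% ± 0.886 of the family's FPKM. Its levels were 42.1, 40.0, 40.5 and 37.5 FPKM. Gria2, the subunit that makes the channel impermeable to calcium, had 31.4, 27.7, 31.7 and 28.4 FPKM, below Gria3 in 4 of 4 animals. By counts Gria2 was ahead, with 42.3% of the family's counts against 41.0% for Gria3; the implied model lengths were 7316 and 5274 bases. Gria1 averaged 15.0 ± 2.13 and Gria4 6.63 ± 0.782 FPKM. The auxiliary subunits that traffic and tune AMPA receptors summed to 408 ± 27.2 FPKM, above the 91.5 ± 5.34 FPKM of the pore subunits. Cnih2 led at 122, 141, 108 and 118 FPKM, then Cacng7 at 84.9 ± 10.1, Cacng3 at 78.5 ± 13.7 and Cacng8 at 46.7 ± 6.61 FPKM. Cacng2, which encodes stargazin, averaged 16.2 ± 2.93 FPKM.

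Grik5, a high-affinity kainate receptor subunit that needs a partner to form a channel, held 79.3% ± 0.994 of its family at 63.0, 64.8, 66.5 and 65.7 FPKM. It was one of the most even receptor genes. Grik4, the other high-affinity subunit, had 8.70, 9.03, 7.76 and 10.5 FPKM. The partner subunits were lower, with Grik2 at 4.54 ± 0.710, Grik1 at 2.00 ± 0.179 and Grik3 at 1.38 ± 0.528 FPKM.

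The NMDA receptor, a calcium-permeable channel needed for synaptic plasticity, requires Grin1 together with Grin2 or Grin3 subunits. Grin1 had 125, 133, 145 and 163 FPKM in Saline 1 to 4 and held 85.1% ± 3.71 of the family. Among the Grin2 genes, Grin2c was highest at 24.5, 13.5, 20.6 and 14.0 FPKM. Grin2b, a main partner in forebrain, had 1.40, 1.85, 1.45 and 1.52 FPKM. Grin2a, the partner that gains weight as cortex matures, had 0.646, 0.666, 1.27 and 0.758 FPKM. Grin1 was thus 4.36, 7.21, 5.57 and 8.67 times the summed Grin2 genes. The low Grin2a and Grin2b values rest on 1267 and 2100 counts over the 4 animals, and their implied model lengths were 5913 and 5271 bases. Whether these gene models cover the whole of the transcripts made in cortex was not tested. Grin2d stood at 2.46 ± 0.297, Grin3b at 1.09 ± 0.160 and Grin3a at 0.430 ± 0.220 FPKM. Grin2b exceeded Grin2a in all 4 animals, by 1.14 to 2.78 times.

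Among metabotropic glutamate receptors, Grm2, an autoreceptor that limits release, led with 13.1, 14.3, 24.5 and 18.5 FPKM. Grm4 at 7.07 ± 0.905 and Grm3 at 6.83 ± 1.36 FPKM were not separated, since Grm4 was the higher of the pair in 2 of 4 animals. Grm7 (3.61 ± 0.428) and Grm8 (3.25 ± 0.344 FPKM), both presynaptic, came next. Grm5, which couples to phospholipase C, was low at 0.865 ± 0.333 FPKM.

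GABA-A receptors are pentamers, most often of alpha, beta and gamma subunits. Gabra5, an alpha subunit of receptors outside synapses, had 28.5, 29.2, 27.0 and 27.1 FPKM. Gabra2 (13.2, 9.13, 12.2 and 9.30 FPKM), Gabra4 (6.03 ± 0.629 FPKM) and Gabra3 (4.53 ± 0.906 FPKM) followed in that order in every animal, and the cerebellar subunit Gabra6 was near 0 at 0.0982 ± 0.0791 FPKM. Gabrd, also a subunit of receptors outside synapses, had 29.8, 31.3, 38.6 and 37.5 FPKM. Gabrd was above Gabra5 in every animal per length, and Saline 3 and 4 stood above Saline 1 and 2. By counts Gabrd was below Gabra5 in Saline 1 (4358 against 4850) and Saline 2 (4440 against 4805). It was above in Saline 3 (5575 against 4535) and Saline 4 (5383 against 4515). The gamma subunit Gabrg1 averaged 2.85 ± 0.689 FPKM and Gabrg3 0.347 ± 0.0823 FPKM. The beta subunits are held by most receptors, yet Gabrb1 had 1.32, 2.71, 1.65 and 1.96 FPKM and Gabrb2 0.455, 0.424, 1.39 and 0.445 FPKM. As for the Grin2 genes, the completeness of these gene models, of 1929 and 2841 bases, was not tested. Gabbr1 and Gabbr2, the obligate partners of the GABA-B receptor, averaged 147 ± 10.7 and 43.1 ± 4.52 FPKM, with a ratio of 3.42 ± 0.193. Glrb, the glycine receptor subunit that binds gephyrin, averaged 33.4 ± 2.42 FPKM, whereas the channel-forming Glra2 stood at 3.35 ± 0.876 FPKM and Glra3 had no count. A count of 0 allows up to 3 counts in a library.

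**Figure D3:**
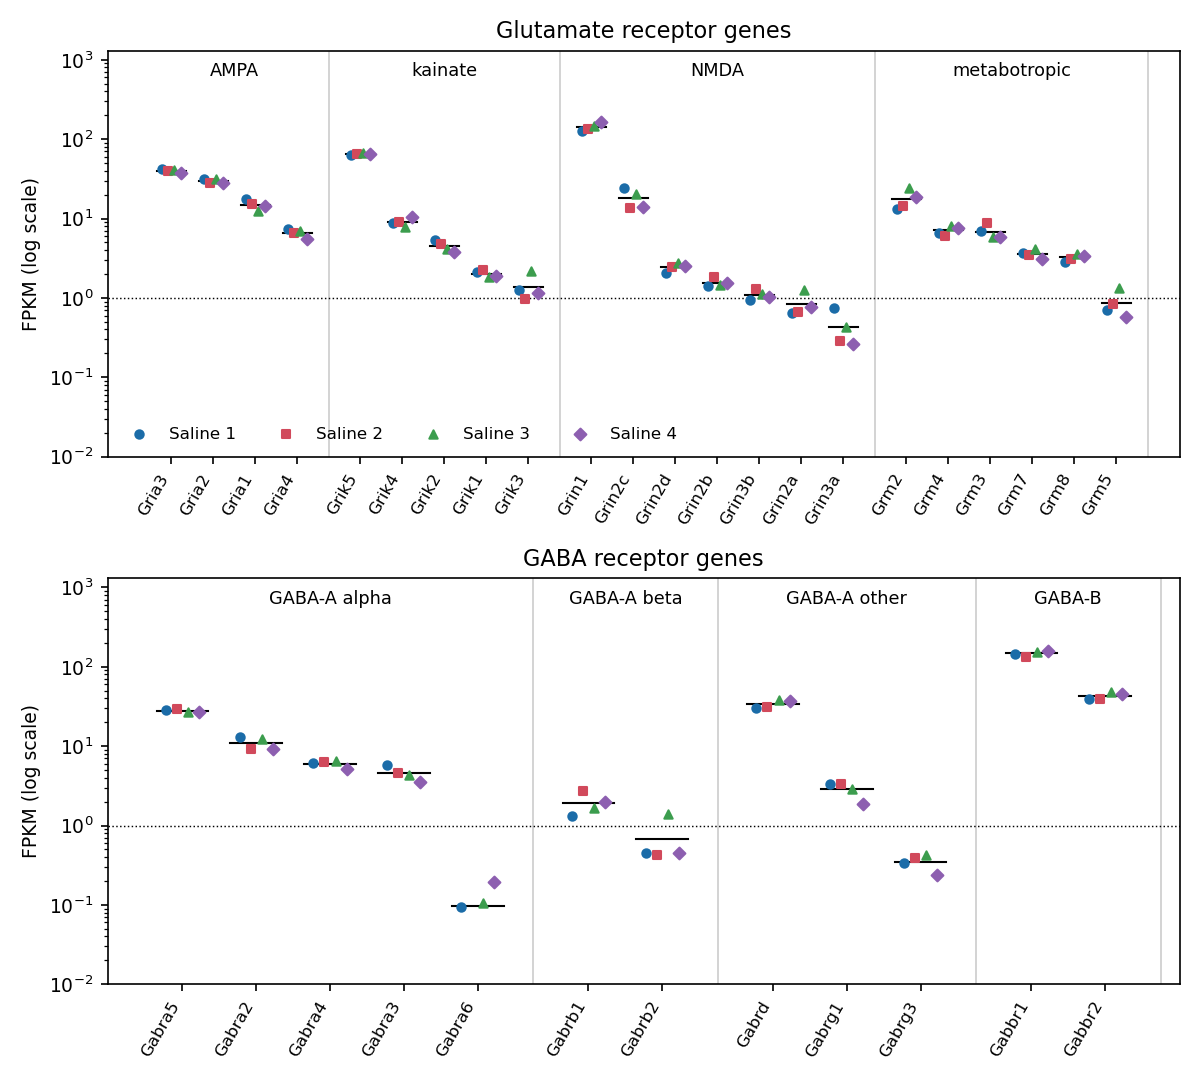
FPKM (vertical, log scale) of glutamate receptor genes (upper panel) and GABA receptor genes (lower panel), with 1 symbol per animal, a black bar at the mean of 4 animals and a dotted line at 1 FPKM. Genes named in the text with a mean of at least 0.01 FPKM are drawn, and values of 0 are left out. Grin1, Gabbr1 and Grik5 stand above their families, and the Grin2a, Grin2b and beta subunit symbols lie near the dotted line.

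Chrm1, the main postsynaptic muscarinic receptor of pyramidal cells, was the leading acetylcholine receptor gene at 36.5, 44.2, 68.5 and 66.8 FPKM. Saline 1 and 2 lay below Saline 3 and 4. Chrm4 and Chrm3 averaged 12.7 ± 2.56 and 8.02 ± 0.567 FPKM. The nicotinic subunits Chrna4 (8.70 ± 1.02) and Chrnb2 (6.78 ± 0.522 FPKM), which assemble into the high-affinity nicotine receptor of the forebrain, were ahead of Chrna5 at 1.05 ± 0.240 FPKM, an accessory subunit of deep-layer neurons. Chrna7, the subunit of the homomeric receptor, had 0.242, 0.353, 0.484 and 0.160 FPKM.

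Serotonin receptors summed to 19.4, 23.4, 21.4 and 17.1 FPKM, spread over many genes. Htr2c led with 6.79, 9.37, 5.46 and 4.39 FPKM, and Htr2a, the receptor on which psychedelic drugs act, had 2.52, 2.97, 3.50 and 2.56 FPKM. Htr6 (2.80 ± 0.939) and Htr3a (2.61 ± 0.329 FPKM, the ion channel subunit) were close to Htr2a, which was above Htr6 in 2 of 4 animals. Htr1a, the inhibitory receptor of pyramidal cells, averaged 0.883 ± 0.278 FPKM, and Htr4 and Htr3b had no count. Adrenergic receptors summed to 56.1 ± 8.82 FPKM and had no clear leader. Adra1d (10.8, 14.2, 16.1 and 24.8 FPKM), Adra1b (9.64, 10.8, 18.0 and 16.4 FPKM) and Adra2c (13.1 ± 1.53 FPKM) changed places between animals. Adrb1 and Adra2a averaged 5.77 ± 0.260 and 5.43 ± 0.343 FPKM and were even.

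Dopamine receptor genes were low, and 1 animal stood above the other 3. Their sum was 4.03, 10.4, 3.51 and 3.70 FPKM, and without Saline 2 the mean of the sum was 3.75 in place of 5.41 FPKM. Drd1 had 2.44, 4.58, 1.59 and 1.75 FPKM and Drd2, the other main receptor, 1.55, 5.40, 1.61 and 1.59 FPKM. Drd1 was ahead of Drd2 in 2 of 4 animals, and without Saline 1 Drd2 led the means. Without Saline 2, Drd2 averaged 1.58 in place of 2.54 FPKM. Drd4 and Drd5 averaged 0.159 ± 0.109 and 0.120 ± 0.0725 FPKM, and Drd3 had no count. Saline 2 was also the animal with the most striatal marker RNA, at 312 FPKM summed over 14 genes, against 137 to 169 FPKM in the other 3, and 12 of the 14 genes were highest there. The part of striatal RNA in the receptor levels of Saline 2 was not tested.

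Hrh3, the histamine autoreceptor and heteroreceptor, was high for a modulatory receptor at 64.1, 75.8, 63.3 and 73.0 FPKM, while Hrh1 averaged 1.34 ± 0.473 FPKM. Adora1, the inhibitory adenosine receptor, had 30.9, 31.6, 29.4 and 36.5 FPKM. Adora2a, a receptor of striatal neurons, had 2.25, 12.9, 3.73 and 3.40 FPKM, and its mean without Saline 2 was 3.13 in place of 5.57 FPKM. Cnr1, the cannabinoid receptor of axon terminals, averaged 14.7 ± 1.78 FPKM and Cnr2, the receptor of immune cells, 0.128 ± 0.0319 FPKM.

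Opioid receptors were, with dopamine receptors, the lowest of the 11 groups at 6.46, 5.67, 5.02 and 4.96 FPKM. Oprl1, the nociceptin receptor, made up 82.3% ± 5.47 of the sum at 5.02, 4.70, 4.50 and 3.90 FPKM. Oprd1, the delta receptor, had 1.03, 0.374, 0.384 and 0.843 FPKM and Oprk1, the kappa receptor, 0.395, 0.595, 0.131 and 0.207 FPKM. Oprm1, the mu receptor on which oxycodone acts, had 4, 0, 0 and 2 counts in Saline 1 to 4, close to the limit of what this depth can show. The opioid peptide precursors were much higher: Penk (enkephalins) had 55.3, 105, 45.5 and 50.6 FPKM, Pdyn (dynorphins) 9.77 ± 1.73 FPKM and Pnoc (nociceptin) 7.96 ± 0.960 FPKM. Penk is also a striatal marker and was highest in Saline 2.

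Neuropeptide precursors as a whole summed to 1294, 1626, 1463 and 1452 FPKM, and Cck alone gave a mean of 60.1% of it. Cck, made by interneurons and by pyramidal cells, had 791, 950, 870 and 895 FPKM and stood at rank 27 of all genes. The order Cck, Sst, Npy and Penk held in every animal. Tac3 at 16.7 ± 3.66 and Adcyap1 at 12.5, 11.1, 11.7 and 12.9 FPKM were in the middle of the family, and Crh, the stress peptide that is also made by cortical interneurons, had 6.28, 5.80, 9.18 and 6.81 FPKM. Nts (2.61, 4.77, 0.779 and 0.981 FPKM), the precursor of neurotensin, was the least even, and without Saline 2 its mean was 1.46 in place of 2.29 FPKM.

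Transporters of amino acid transmitters were high and those of monoamines were close to absent. Slc17a7 held 95.5% ± 0.502 of the vesicular group, and Slc17a6, the subcortical counterpart, averaged 2.50 ± 0.726 FPKM. Slc1a3, an astrocytic glutamate carrier, had 119, 84.4, 77.4 and 73.8 FPKM, with Saline 1 above the rest. Slc1a2, known as the main glutamate carrier of adult forebrain, had 16.8, 20.3, 18.0 and 25.9 FPKM, so that Slc1a3 was 7.06, 4.15, 4.30 and 2.84 times Slc1a2. The mean of this ratio was 4.59 per length and 9.30 by counts, with implied model lengths of 5507 bases for Slc1a3 and 2716 bases for Slc1a2. Whether the Slc1a2 model covers its whole transcript was not tested. The dopamine carrier Slc6a3 had 0, 0.0786, 0 and 0 FPKM, the serotonin carrier Slc6a4 0, 0, 0 and 0.0523 FPKM, and the noradrenaline carrier Slc6a2 no count. Slc12a5, the chloride exporter that makes GABA inhibitory in mature neurons, was 9.96 ± 2.71 times Slc12a2, the chloride importer, at 63.4 ± 6.06 FPKM and 6.61 ± 1.18 FPKM. Of the sodium channels, Scn2a of pyramidal cells led at 17.9 ± 1.42 FPKM, ahead of Scn1a of interneurons at 9.67 ± 0.531 and of Scn8a at 2.90 ± 0.776 FPKM in every animal.

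Genes driven by neuronal activity were well above the floor in animals that had received saline. Arc, an effector of synaptic plasticity, had 75.7, 71.4, 91.9 and 109 FPKM, and Egr1 had 76.6, 56.8, 70.1 and 62.5 FPKM. Nptx2 averaged 78.3 ± 16.2 and Nr4a1 46.1 ± 8.44 FPKM. Fos stood lower at 17.0, 10.3, 13.2 and 11.7 FPKM, and Npas4 at 7.92, 4.83, 4.56 and 7.55 FPKM. Of the 16 genes in the list, 9 were highest in Saline 1, 5 in Saline 4 and none in Saline 2, where 11 were lowest. Of the 13 common reference genes, 7 were also highest in Saline 1, whereas 1 was highest in Saline 4 and 1 lowest in Saline 2. Nr4a2 was the least even, at 5.20, 4.76, 1.77 and 1.88 FPKM, with Saline 1 and 2 apart from Saline 3 and 4.

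The summed level of 13 clock genes was even, at 210, 214, 203 and 215 FPKM. Single members were less so, with a median biological CV, defined further on, of 13.6% against 14.1% over all genes in the fit. Of the 13, 5 lay above the median of all genes. The output factors Dbp and Tef had the highest means, at 48.0 ± 6.36 and 37.2 ± 3.51 FPKM. The core activators Arntl and Clock stood at 6.85 ± 0.334 and 1.85 ± 0.116 FPKM. Nr1d1, a repressor in the loop, had 26.5, 36.2, 37.8 and 43.7 FPKM. It was below Tef in Saline 1 and above it in Saline 2, 3 and 4. Glucocorticoid-responsive genes summed to 118 FPKM in Saline 1 and to at most 89.5 FPKM in the other 3, and 8 of 10 were highest in Saline 1. So were 7 of the 13 common reference genes, and the share over all genes was not counted. Tsc22d3, a direct target of the receptor, had 22.6, 12.6, 11.2 and 9.93 FPKM, and Sgk1 13.7, 7.12, 8.48 and 7.41 FPKM. The receptor genes themselves were even, with Nr3c1 at 2.70 ± 0.229 and Nr3c2 at 2.93 ± 0.153 FPKM. Saline 1 was also highest for most endothelial, microglial and blood markers and for Ttr of the choroid plexus, whose part in these values was not tested.

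Interferon-induced genes were low and highest in Saline 4 for 10 of 13 members, with sums of 20.4, 28.7, 16.5 and 36.0 FPKM. Irf7, the amplifier of the response, had 1.08, 2.14, 1.20 and 4.62 FPKM, and its mean without Saline 4 was 1.47 in place of 2.26 FPKM. Bst2, which tethers virus particles, had 6.04, 10.4, 5.71 and 13.7 FPKM. Saline 2 was the second highest in both, and the lowest animal was Saline 1 for Irf7 and Saline 3 for Bst2. Chaperone genes were high and even. Hspa8, a constitutive chaperone, had 818, 839, 806 and 841 FPKM, and the list of 14 heat shock and unfolded protein genes summed to 2704 ± 96.4 FPKM.

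Of the perineuronal net and lectican genes, whose products wrap inhibitory neurons as cortex matures, Bcan held 71.2% ± 4.34 of the sum at 130 ± 7.28 FPKM. Ncan averaged 8.76 ± 1.12 FPKM, and Acan, the defining core protein of nets, 0.499 ± 0.0359 FPKM. The link proteins differed: Hapln4, of net-bearing neurons, had 10.9, 20.5, 19.2 and 30.5 FPKM, whereas Hapln2, of nodes of Ranvier in myelinated tracts, had 16.3, 28.5, 10.8 and 15.0 FPKM, highest in Saline 2 like the myelin genes.

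The spread between animals was expressed as the biological CV, the percentage by which a gene's true level varies from animal to animal once counting error is removed, with each gene's estimate drawn toward genes of like level. Its median over the 12509 genes was 14.1%, and the middle 50% of genes lay between 11.6% and 19.6%. It fell with level, with medians of 23.5% at 1 to 2 FPKM, 13.9% at 5 to 10 FPKM and 10.6% at 50 to 100 FPKM. The CV of FPKM, which is not drawn toward other genes, had a median of 11.4%. A biological CV of 50% or more was found in 78 genes (0.624%), and of 30% or more in 420 genes (3.36%). Leaving out 1 animal gave 63, 48, 62 and 65 genes at 50% or more without Saline 1, 2, 3 and 4. Counting error reached the biological CV in only 37 of the 12509 genes.

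Lists differed in their median biological CV. AMPA receptor subunits stood at 11.4%, and chaperones at 10.8%, below the 14.1% of all genes in the fit. Serotonin receptors stood at 22.3%, mature oligodendrocyte genes at 20.1%, the striatal and choroid plexus lists at 30.9% each, dopamine receptors at 37.9% and blood genes at 62.0%. The lists were not matched to all genes for level. The 6 serotonin receptors averaged 1.31 to 6.50 FPKM. Medians of all genes were 23.5% at 1 to 2, 18.2% at 2 to 5 and 13.9% at 5 to 10 FPKM, so 22.3% lay within that range. All 14 chaperones and 11 mature oligodendrocyte genes averaged 10 FPKM or more, where class medians were 10.6% to 12.2%. The chaperone median lay within that range and the oligodendrocyte median above it. Among the reference genes used to scale quantitative PCR, Sdha (9.49%), Pgk1 (9.77%) and Hprt1 (9.78%) were the most even, and Gapdh was less so at 14.4%, with 438, 557, 569 and 624 FPKM. Gusb had the widest spread of the reference genes, 21.3%, at 1.74 ± 0.253 FPKM. Since spread fell with level over all genes, Gusb is not comparable with the abundant Actb or Gapdh on this measure.

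The 10 steadiest genes were Cul3, Ddx1, Dnajb2, Vmp1, Chmp3, Cul1, Pdhb, Arl6ip5, Ppib and Smim14, with biological CVs of 9.04% to 9.12%. Their CV of FPKM, which is not drawn toward other genes, was only 1.48% to 3.66%. The biological CV thus overstates the spread seen in these 10. They include ubiquitin ligase scaffolds (Cul3 and Cul1), an RNA helicase (Ddx1), a membrane remodelling protein (Chmp3) and a folding enzyme of the endoplasmic reticulum (Ppib). Pdhb, a subunit of pyruvate dehydrogenase, had 72.8, 72.7, 70.5 and 71.7 FPKM. All 10 had mean levels between 11.2 and 99.4 FPKM.

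The 20 genes with the widest spread had biological CVs of 96.1% to 213%. Of these, 10 have no symbol in the deposited table, and several others were at 0 in some animals and present in others. Tbpl1 had 0, 0, 0 and 10.2 FPKM in Saline 1 to 4. Mrps17, a mitochondrial ribosomal protein gene, had 0, 3.85, 0.723 and 12.5 FPKM. Fam181b has 2 overlapping gene models on chromosome 1, one with 0, 0, 0 and 5.94 FPKM and the other with 5.29, 3.93, 0 and 0 FPKM. Saline 3 was at 0 in both models. Mcoln1, a lysosomal channel gene, had 10.4, 5.86, 0.152 and 0.388 FPKM, and Fam111a 0.122, 4.59, 0.0986 and 4.62 FPKM. Psca had 4.05, 0.220, 0.00498 and 0.160 FPKM. Leaving out 1 animal kept 14 to 17 of these 20 among the 20 widest.

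Sex-linked transcripts split the animals evenly. Eif2s3y, a translation factor gene on the Y chromosome, had 3739, 48, 3202 and 33 counts, and Kdm5d, a histone demethylase gene on the same chromosome, 2.98, 0.0375, 3.04 and 0.0247 FPKM. Saline 1 and 3 were therefore high and Saline 2 and 4 near 0. The means rest on those 2 animals, and without Saline 1 Eif2s3y averaged 5.92 in place of 9.44 FPKM. ENSRNOG00000069434, placed on chromosome 1 by the deposited table, had the same pattern at 2.48, 0.0314, 2.68 and 0.0311 FPKM. Fam111a was high in Saline 2 and 4 instead.

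Blood genes followed another order. Hba-a2, an alpha globin gene, had 1172, 144, 498 and 147 FPKM and Hbb-b1, a beta globin gene, 492, 52.9, 185 and 47.2 FPKM. Alas2, the haem enzyme of red cell precursors, had 16.5, 1.78, 7.19 and 2.04 FPKM. All 5 genes of the list were highest in Saline 1 and second in Saline 3. The mean of the blood sum was 717 FPKM, and 375 FPKM without Saline 1. Hba-a2 and Hba-a3 are near-identical copies whose reads could have been split between them. Ttr, the thyroid hormone carrier of the choroid plexus, had 22.7, 2.06, 0.412 and 0.585 FPKM, and the choroid plexus and ependyma list summed to 29.0 FPKM in Saline 1 and to 4.39 to 6.73 FPKM in the others. Ttr made up most of the sum in Saline 1, and 3 of the 8 members were highest there. Without Saline 1 the mean of that sum was 5.67 in place of 11.5 FPKM. The defining choroid plexus genes Otx2, Clic6 and Folr1 stayed at or below 0.651 FPKM in every animal. Markers of thalamus and hypothalamus were low but also highest in Saline 1 for 7 of 8 genes, with a sum of 10.2 FPKM there and 5.64 to 6.62 FPKM in the other 3. Of the common reference genes, 7 of 13 were highest in Saline 1.

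Striatal markers were highest in Saline 2. Ppp1r1b, the phosphoprotein of dopamine-responsive neurons, had 66.5, 141, 63.1 and 88.6 FPKM, Rgs9 3.96, 13.0, 3.25 and 4.67 FPKM and Gpr6 0.764, 2.80, 0.949 and 0.890 FPKM. Pde10a, another striatal gene, did not share the order, at 1.42, 1.14, 1.43 and 1.37 FPKM. Markers of the olfactory bulb summed to 15.0, 17.1, 12.6 and 12.7 FPKM, and its defining factors Eomes and Tbx21 stayed at or below 0.580 FPKM in every animal.

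**Figure D4:**
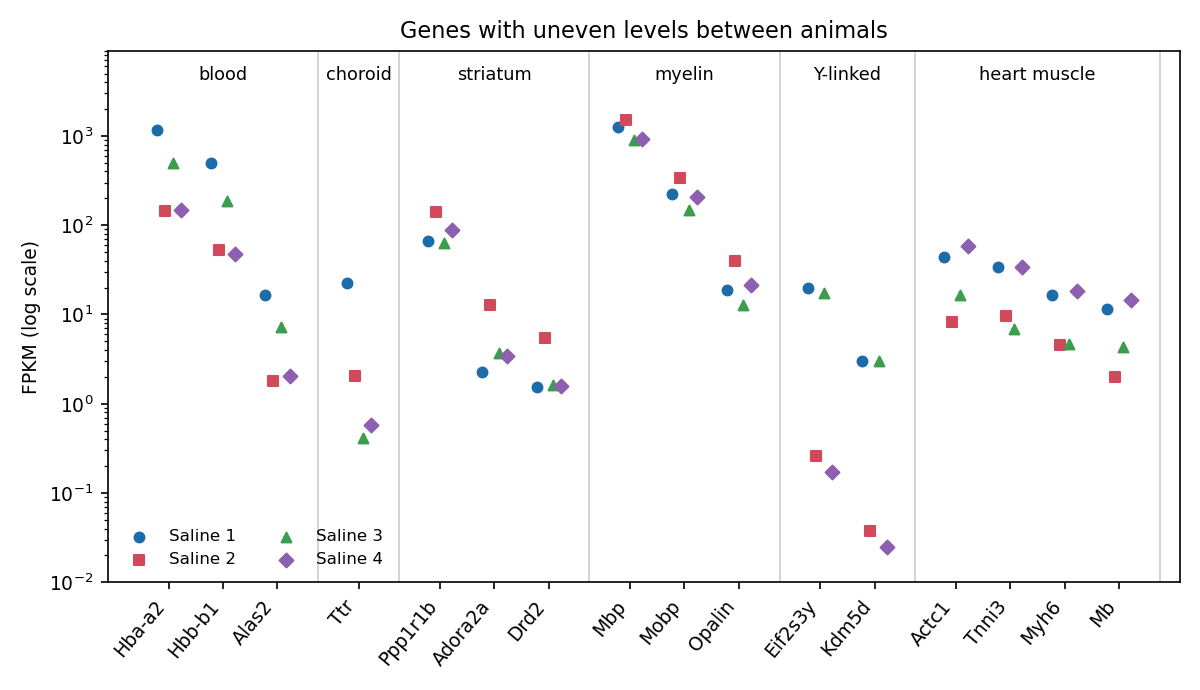
FPKM (vertical, log scale) of 16 genes in Saline 1 to 4, grouped by what they mark, with 1 symbol per animal. Blood genes and Ttr were highest in Saline 1, striatal and myelin genes in Saline 2, Y-linked genes in Saline 1 and 3, and heart muscle genes in Saline 1 and 4.

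**Figure D5:**
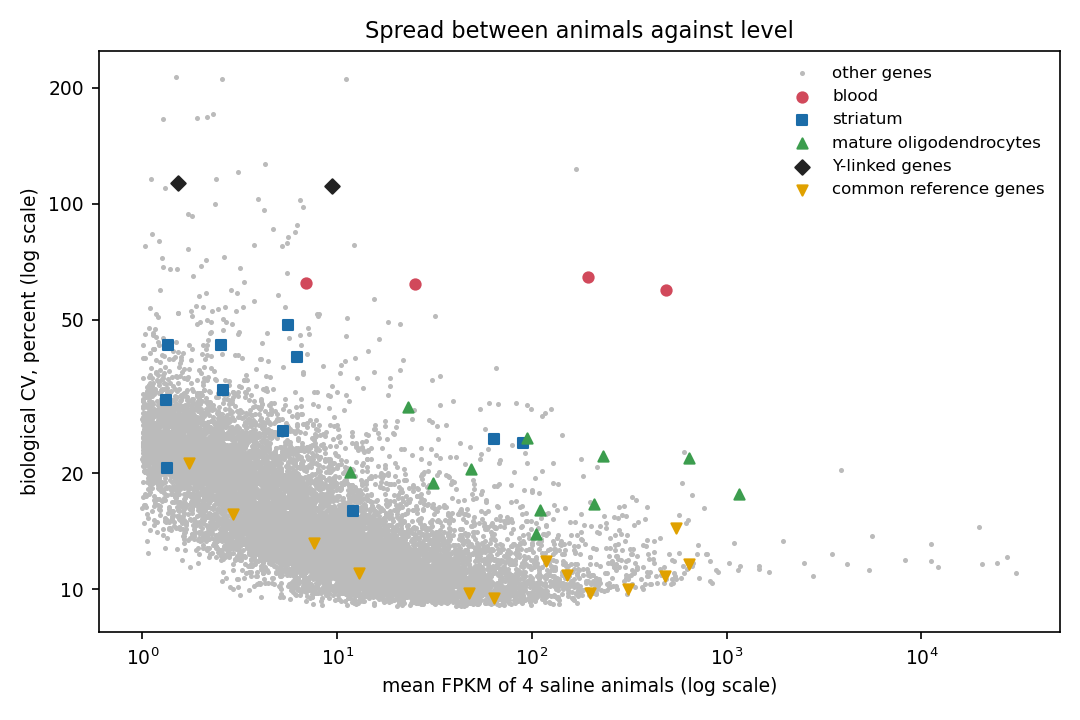
Biological CV in percent (vertical, log scale) against mean FPKM (horizontal, log scale) for the 12509 genes at 1 FPKM or more, with members of 5 lists in colour. Most reference genes lie along the lower edge, and the 4 blood genes stand between 59.6% and 64.5% at every level.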

How the data were processed

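Cortical RNA of 12 rats was sequenced, and the 4 saline libraries are described here. The deposited table gives, per the file headers, whole-number counts and FPKM per gene. The authors named HISAT2 and StringTie, per the submitters' processing notes. Tool versions, parameters, build and gene models were not given in the sources used here. Counts were used as deposited. The deposited FPKM equal the count over a fixed length per gene and a library total: the implied length varied by a median of 0.0245% between libraries over 12745 genes with at least 100 counts in each. Its scale was set on the spans of mitochondrially encoded genes. FPKM therefore depends on the gene model, so counts, or ranks or shares by counts, are given for some of the genes whose place turned on length.

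Levels are means ± SD over 4 animals, and a gene was called detected at a mean of 1 FPKM. Symbols absent from the table were not analysed here, and some genes are not reported here. The biological CV came from edgeR 4.0.16 (R 4.3.3; intercept only, TMM scaling, mean FPKM of at least 1), tested on simulated data, where large spreads were drawn toward the trend and so are understated. DESeq2 1.42.0 was an alternative, and Python 3.11.15 with matplotlib 3.10.9 drew the figures. Named genes are the 10 highest nuclear and the mitochondrially encoded protein genes, the 20 widest and 10 steadiest by biological CV, and members of gene lists for receptors, transporters, cell types and states, those that lead with full values. The lists and the choice of animals were made with earlier results of these data known. Intervals are not given. Counting error was small beside the spread for nearly all genes, so how well a mean is known is set mainly by the spread over 4 animals. Whether the 4 libraries are independent of litter could not be checked.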

Additional observations from a re-analysis of the deposited data

Results flagged for a closer look

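Of 271 results checked (list sums and the FPKM of each named gene over the 4 saline animals), 17 had 1 animal far from the other 3. Chance alone places some groups of 4 past this limit, and nested results such as a list and its members count more than once, so the number is not read as a result. No explanation was tested for any of them.

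Saline 2 stood apart in 8. It was high for the summed dopamine receptors at 10.4 FPKM (others 3.51 to 4.03) and for Drd2 at 5.40 FPKM (1.55 to 1.61). Adora2a had 12.9 FPKM (2.25 to 3.73), Rgs9 13.0 FPKM (3.25 to 4.67), Gpr6 2.80 FPKM (0.764 to 0.949) and Penk 105 FPKM (45.5 to 55.3). These genes are also expressed in striatum. The summed nicotinic subunits were 20.7 FPKM in Saline 2 (18.1 to 18.4), and Slc6a3 was 0.0786 FPKM there and 0 in the others.

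Saline 1 stood apart in 6. It was high for the choroid plexus and ependyma sum at 29.0 FPKM (4.39 to 6.73), most of which was its member Ttr at 22.7 FPKM (0.412 to 2.06), for Psca at 4.05 FPKM (0.00498 to 0.220) and for the clock output gene Tef at 42.4 FPKM (35.1 to 36.1). It was low for the summed interneuron markers at 536 FPKM (667 to 682) and for the serotonin receptor gene Htr3a at 2.12 FPKM (2.73 to 2.83).

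Saline 3 was high for Gabrb2 at 1.39 FPKM (0.424 to 0.455) and had the only Otx2 signal, 0.0273 FPKM. Saline 4 had the only Slc6a4 signal, 0.0523 FPKM. The values of Slc6a3, Slc6a4 and Otx2 rest on 10, 8 and 6 counts.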

How the results depend on the processing

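Of the 5 summaries, the number of genes at 1 FPKM or more (12509) became 7750 at a floor of 5 FPKM and lay between 12448 and 12548 with 1 animal left out. The share of the 10 highest genes (35.8%) became 5.12% without mitochondrially encoded genes and 16.8% of counts, and lay between 35.3% and 36.5% with 1 animal left out. By counts 23 of 25 families kept their leading gene, and 24 to 25 did with 1 animal left out. The median fold between the highest and lowest animal over 18 cell type lists was 1.34, and 1.25 to 1.31 with 1 animal left out, where fewer animals give a narrower range by construction. The highest animal of all 18 lists was the same when FPKM was rescaled with or without mitochondrially encoded genes. The median biological CV of 14.1% became 11.4% as CV of FPKM, 12.5% by DESeq2, 21.9% with no filter, 12.3% at a mean of 5 FPKM or more and 13.5% to 14.7% with 1 animal left out. Over all 12 libraries it was 14.5% with the replicate number as a block and 15.1% without that block, the second being chosen after seeing the data. Same-numbered libraries of the 3 treatment groups correlated at 0.026 to 0.48 in their deviations over 12 pairs, 8 of them above 0.1, and 36 pairs with different numbers had a median of -0.0335, 6 of them above 0.1. The same-numbered pairs had the higher median, 0.1235, and 4 of them did not pass 0.1. The numbers were not taken to pair animals, and what same-numbered libraries share was not tested. For single families and lists, 23 of 172 values moved by more than their spread with 1 animal left out and 17 of 88 under other settings. Depth limits the genes with few counts, such as Oprm1.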

Other observations

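Many genes of heart muscle were unevenly present in the saline cortex. The list of 28 cardiac and striated muscle genes was chosen after its values were seen, and 27 were in the table. In 20 of these 27, Saline 1 and Saline 4 were both above Saline 2 and Saline 3. The choice of list favoured this order, and its share over all genes was not counted, so the tally only describes the list. The summed levels of the 27 genes were 329, 159, 178 and 400 FPKM in Saline 1 to 4. Actc1, cardiac actin, had 44.2, 8.20, 16.7 and 58.0 FPKM, and Tnni3, cardiac troponin I, 33.9, 9.66, 6.93 and 33.9 FPKM. Myh6, the atrial myosin heavy chain, had 16.6, 4.58, 4.72 and 18.5 FPKM, and the oxygen store Mb 11.5, 2.00, 4.30 and 14.6 FPKM. The skeletal muscle genes Acta1 and Myh4 did not share the order, at 10.3, 13.3, 11.9 and 14.4 FPKM and at 0.254, 0.334, 0.241 and 0.304 FPKM. Neither did Nppa, at 13.5, 13.4, 7.96 and 8.94 FPKM, nor Fabp3, the highest member, at 52.1, 51.8, 61.6 and 65.0 FPKM. Myl4, Ryr2 and Tnnt3 also lacked the order, and the sums include all these genes. The blood genes, highest in Saline 1 and 3, took another order than the heart muscle genes.

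A set of 6 hippocampal genes, also chosen after values were seen, summed to 45.7, 43.5, 58.5 and 54.3 FPKM, of which Wfs1 gave 39.8, 38.2, 57.3 and 51.1 FPKM. Spink8 had 2.75, 0.356, 0.181 and 1.81 FPKM, higher in Saline 1 and 4 as most of the heart muscle genes were. Only 2 of the 6 hippocampal genes had this order, and Wfs1 and Nts were among those without it.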
